A study of Homo sapiens with 8 samples.

Results

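The unfolded protein response and the folding machinery of the endoplasmic reticulum (ER) are described here through 32 genes, chosen by name: chaperones, disulfide isomerases, genes of ER-associated degradation, translocation and export genes, and the sensors and transcription factors of the response. Of these, 31 were measured by 32 probe sets that carry exactly 1 gene symbol, among 18404 genes measured in that way. PDIA3 could not be tested, because both of its probe sets also carry the pseudogene PDIA3P1. The membership rests on function and its rule uses no measured value, but the members were chosen with earlier results of these data known.

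The cells were HSC39, a human gastric cancer line of signet ring type, kept in RPMI with fetal calf serum and treated with small interfering RNA (siRNA). The TRIM44 siRNA was given for 48 h at 100 nM (written nm in the labels). The groups were TRIM44 siRNA 7 (2 arrays), TRIM44 siRNA 9 (2 arrays) and negative siRNA (4 arrays), all on a whole-transcript array. TRIM44 is a tripartite motif protein with a ubiquitin-binding zinc finger, and the study asked which transcripts differ when it is lowered by siRNA. For the negative samples the treatment text also names only TRIM44 siRNA, so that the dose and time of the control siRNA are not stated, and the series design calls the control cells untreated. The sample labels, which call them treated with a negative siRNA, were followed, and which of these holds cannot be told from the files. The series counts 4 biological replicates per condition, and nothing else says that these were separate cultures, so p-values reflect sample-to-sample spread that may be technical only. All groups are 1 cell line, and the knockdown was partial: the log2 level of TRIM44 was 10.85 and 11.27 with siRNA 7, 11.10 and 11.14 with siRNA 9, and 11.91, 12.02, 11.91 and 11.77 with negative siRNA.

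TRIM44 thus stood at 57.0% of its level with negative siRNA (log2 difference -0.81, SE 0.10, limma adjusted p = 0.0449). An exact two-sided permutation test over the 70 assignments gave p = 0.0286, the smallest it can give. The limma call for TRIM44 was kept in 1 of 8 fits that left out an array, without siRNA 7 array 2 (adjusted p = 0.0306); the adjusted p was 0.0587 to 0.291 in the fits without siRNA 7 array 1, either siRNA 9 array or any negative array. Array medians lay between 6.78 and 6.87 and pairs of arrays correlated at 0.991 to 0.997. The 8 epithelial markers averaged 10.4 to 13.0 on the log2 scale. The 5 leukocyte markers averaged 4.23 to 11.5, with LYZ, the lysozyme gene, which gastric epithelium also expresses, the highest. The 4 endothelial markers averaged 5.41 to 6.92, against a median of 7.58 over all genes. The 5 fibroblast markers averaged 4.38 to 9.77, with LUM the highest, and the 5 plasma cell markers 4.34 to 9.59, with SDC1, which epithelial cells also express, the highest. PRDM1, a transcription factor of the plasma cell list, was at 6.34 and 6.49 with siRNA 7, 6.94 and 6.99 with siRNA 9, and 6.46 to 6.75 with negative siRNA. It was lower with siRNA 7 than with siRNA 9 (log2 difference -0.55, limma adjusted p = 0.0378). The list did not move with it: 3 of its 5 genes were above 0, SDC1 at 0.27, and the list median was 0.00. The part of PRDM1 in the members' differences between the reagents was not tested. In such bulk RNA, fewer cells of a type and less RNA per cell cannot be told apart.

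Secreted and membrane proteins enter the ER through the translocon, fold there with the help of chaperones, disulfide isomerases and lectins, and leave in coated vesicles. When unfolded proteins build up, the sensors IRE1 (gene ERN1), PERK (gene EIF2AK3) and ATF6 respond: IRE1 splices the mRNA of the transcription factor XBP1, PERK slows translation and favours ATF4, and ATF6 is cut to release a transcription factor. The targets of these arms are largely the chaperones, the degradation genes and the translocation genes, and gastric mucous cells, like other secretory cells, carry a high load of proteins through the ER. The arrays measure the RNA of these genes and not splicing of XBP1, phosphorylation or cleavage of the sensors.

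Many promoters of the folding genes carry the ER stress response element, ERSE, bound by NF-Y together with ATF6 or XBP1. It was searched for on both strands as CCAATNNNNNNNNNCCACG in 300-base windows around each gene's start, mostly upstream of it, from RefSeq in build GRCh38.p14. Its shorter relative ERSE-II, in which ATTGG and CCACG stand 1 base apart, was searched for likewise. At least 1 window was found for 28 of the 32 members. ERSE matched in 7 members (HSPA5, HSP90B1, CRELD2, CALR, CANX, PDIA6 and XBP1). Over all 27305 genes with a window, members included, it matched in 25, in 27 of all 35116 windows (0.0769%). ERSE-II matched in 3 members (HYOU1, SDF2L1 and HERPUD1). Over the same genes it matched in 19, in 19 of all windows (0.0541%). The sites of 7 of these members are printed to make plain which element each holds, with the match in capitals and each site turned so that the element reads from left to right:
HSPA5 ERSE, chr9:125241391-125241409, minus strand gene: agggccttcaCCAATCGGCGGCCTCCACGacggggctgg
HSP90B1 first ERSE, chr12:103930216-103930234: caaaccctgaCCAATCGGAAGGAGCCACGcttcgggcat
HSP90B1 second ERSE, chr12:103930321-103930339, strand opposite to the gene: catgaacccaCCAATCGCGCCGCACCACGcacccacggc
PDIA6 ERSE, chr2:10812853-10812871, minus strand gene: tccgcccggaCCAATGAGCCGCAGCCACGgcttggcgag
XBP1 ERSE, chr22:28800603-28800621, minus strand gene: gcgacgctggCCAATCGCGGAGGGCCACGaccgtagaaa
SDF2L1 ERSE-II, chr22:21642114-21642124, strand opposite to the gene: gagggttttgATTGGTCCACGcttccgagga
HYOU1 first ERSE-II, chr11:119057380-119057390, strand opposite to the gene: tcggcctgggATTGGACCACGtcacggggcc
HYOU1 second ERSE-II, chr11:119057274-119057284, strand opposite to the gene: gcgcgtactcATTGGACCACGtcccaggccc
HERPUD1 ERSE-II, chr16:56932025-56932035: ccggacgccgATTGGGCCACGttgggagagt

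With siRNA against TRIM44, no member passed the threshold of the test (limma adjusted p under 0.05) in any comparison, and the members' differences were small, mostly on the upper side of 0. For both siRNAs together against negative siRNA, the median log2 difference over the 31 members was 0.07, with 22 members above 0. Over all genes it was 0.01, with 53.9% of genes above 0. The largest were SEC24D, a cargo adaptor of the vesicle coat, at 0.30, and SRPRB, a subunit of the receptor that docks ribosomes at the ER, at 0.29. At an unadjusted p under 0.05 there were 5 members, all above 0: HSPA5, DNAJC3, SDF2L1, SRPRB and SEC24D. That is 16.1% of the 31, against 5.43% of all probe sets tested. With negative array 2 left out there were 8 members (25.8%, against 8.91% of all probe sets in that fit). There were 2 when negative array 1, negative array 3 or the first siRNA 9 array was left out (6.45%, against 3.32%, 3.09% and 4.24%). There were 3 when negative array 4 or the second array of siRNA 7 or siRNA 9 was left out (9.68%, against 6.17%, 6.51% and 4.01%). Past the adjusted threshold there were 0 members, against 0.00522% of probe sets (TRIM44 alone), and the lowest adjusted p of a member was 0.788.

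**Figure D1:**
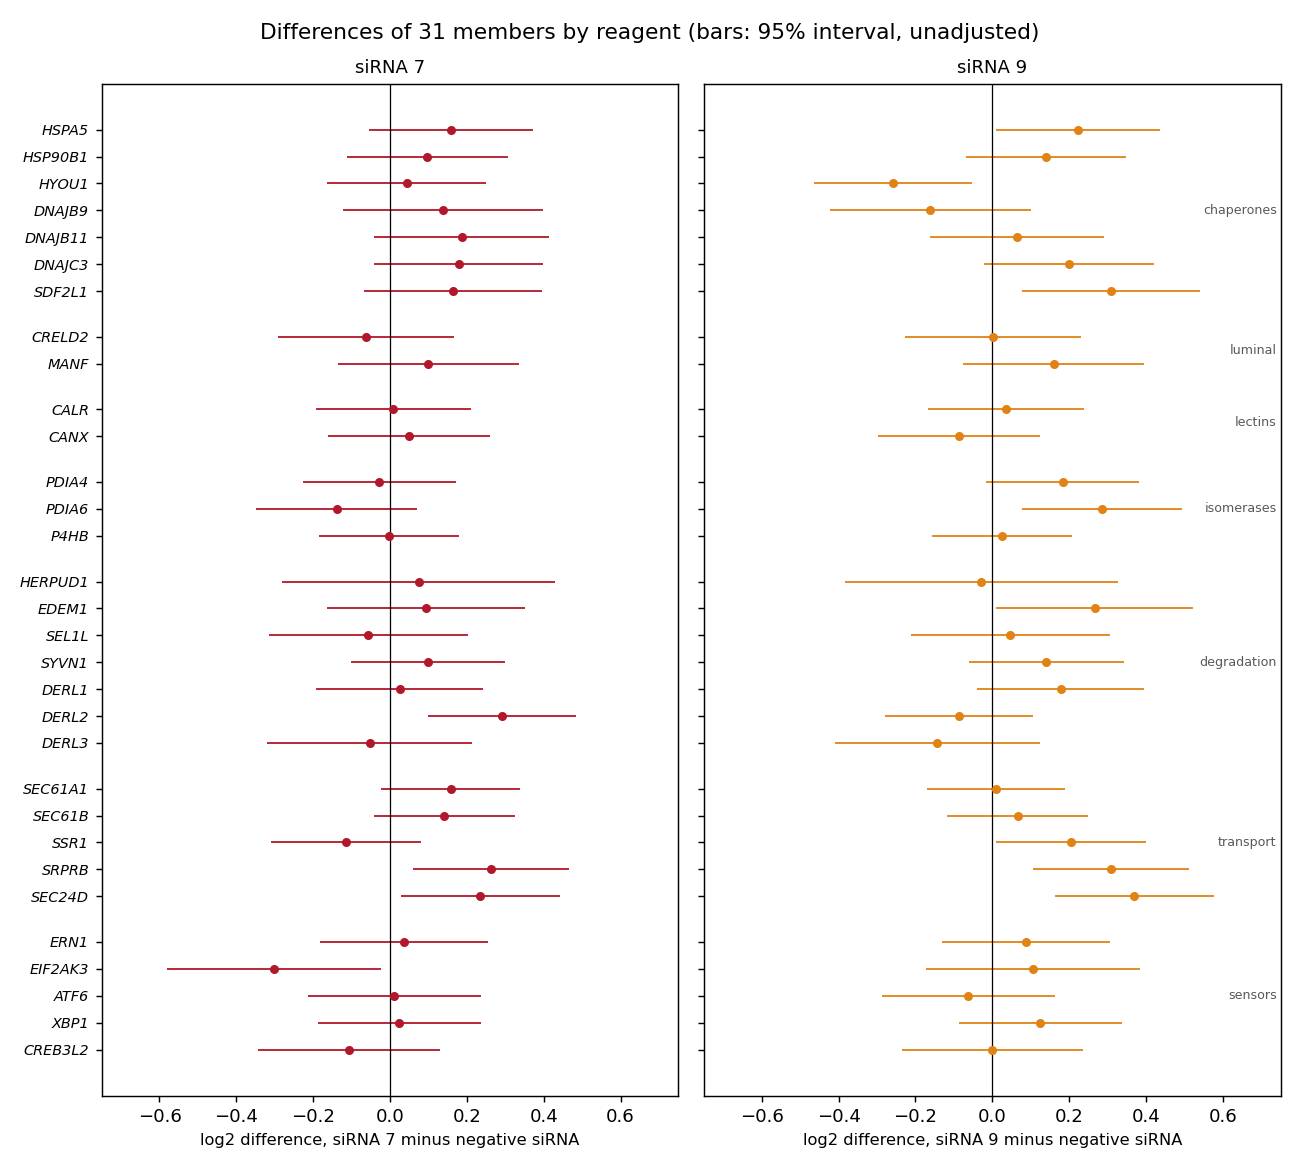
Log2 difference of each of the 31 measured members with siRNA 7 and with siRNA 9 against negative siRNA, with unadjusted 95% intervals of the limma fit; both share the 4 negative arrays. Points for SRPRB and SEC24D lie between 0.24 and 0.37 with both siRNAs, PDIA6, SSR1 and EIF2AK3 lie below 0 with siRNA 7 and above 0 with siRNA 9, and DERL2 and HYOU1 lie the other way round.

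The reagents were also fitted one by one, each against the same 4 negative arrays. For siRNA 7 the member median was 0.05 with 22 above 0, against -0.00 over all genes with 49.2% above 0. For siRNA 9 it was 0.09 with 24 above 0, against 0.02 over all genes with 56.7% above 0. No member passed the adjusted threshold for siRNA 7 (limma, 0.0679% of probe sets called) or siRNA 9 (0.924% called). At an unadjusted p under 0.05 there were 4 members for siRNA 7 (12.9%, against 7.46% of all probe sets), DERL2, SRPRB and SEC24D above 0 and EIF2AK3 below 0. For siRNA 9 there were 8 (25.8%, against 13.6% of all probe sets), HSPA5, SDF2L1, PDIA6, EDEM1, SSR1, SRPRB and SEC24D above 0 and HYOU1 below 0. When negative array 2 was dropped there were 7 members for siRNA 7 (22.6%, against 10.6% of all probe sets in that fit) and 14 for siRNA 9 (45.2%, against 19.8%). For siRNA 7 there were 2 members (6.45%) when negative array 3 or the first siRNA 7 array was dropped, against 5.29% and 8.50% of probe sets, and 1 (3.23%, against 4.35%) when the second was. For siRNA 9 there were 5 members (16.1%) when negative array 1 or 3 was dropped, against 10.2% and 9.78% of probe sets. There were 4 (12.9%, against 7.56%) when the first siRNA 9 array was dropped, and 2 (6.45%, against 8.05%) when the second was. With all arrays, but only the upper 50% of probe sets by mean tested, 5 members were under 0.05 unadjusted for siRNA 7 (16.1%, against 11.5%). For siRNA 9 there were then 9 (29.0%, against 21.7%). The sign was the same with both reagents for 17 members, 16 above 0 and DERL3 below 0, and opposite for 14.

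HSPA5 encodes BiP, the Hsp70 chaperone of the ER lumen that also holds the sensors inactive. Its log2 level was 12.06 and 12.08 with siRNA 7, 12.11 and 12.15 with siRNA 9, and 11.82, 12.08, 11.83 and 11.92 with negative siRNA. The siRNA arrays lay above negative arrays 1, 3 and 4 and met only negative array 2. The difference of 0.19 (95% interval 0.01 to 0.37) corresponds to 114% of the negative level and missed the adjusted threshold (limma adjusted p = 0.903). It was 0.16 with siRNA 7 and 0.22 with siRNA 9, and the reagents differed by -0.06 with an interval of -0.31 to 0.18.

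HSP90B1, which encodes the Hsp90 chaperone GRP94, was close to this pattern. Its level was 12.71 and 12.70 with siRNA 7, 12.73 and 12.77 with siRNA 9, and 12.50, 12.76, 12.62 and 12.55 with negative siRNA. All siRNA arrays stood above negative arrays 1, 3 and 4, and negative array 2 stood among them. The difference was 0.12 (SE 0.08, limma adjusted p = 0.997).

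SDF2L1, a cochaperone in complex with BiP, had the largest difference of the chaperone class for both siRNAs together. Its level was 8.56 and 8.63 with siRNA 7, 8.80 and 8.67 with siRNA 9, and 8.31, 8.52, 8.31 and 8.58 with negative siRNA. The siRNA 9 arrays were above every negative array, while siRNA 7 array 1 fell just under negative array 4. For both siRNAs the difference was 0.24 (SE 0.09, limma adjusted p = 0.884), and for siRNA 9 it was 0.31 (adjusted p = 0.210).

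DNAJC3, a J-domain cochaperone of BiP, had levels of 9.33 and 9.40 with siRNA 7, 9.38 and 9.39 with siRNA 9, and 9.10, 9.38, 9.14 and 9.11 with negative siRNA. Negative array 2 again lay at the siRNA level and the other negative arrays well under it. The difference was 0.19 (limma adjusted p = 0.903). The J-domain cochaperones DNAJB11 and DNAJB9 gave 0.13 and -0.01. HYOU1, the nucleotide exchange factor for BiP, had levels of 10.49 and 10.52 with siRNA 7, 10.31 and 10.10 with siRNA 9, and 10.38, 10.50, 10.44 and 10.52 with negative siRNA. Both siRNA 9 arrays were below every other array; the siRNA 9 difference was -0.26 (limma adjusted p = 0.239). Over the 7 chaperone genes the median difference was 0.13, with 5 above 0 for both siRNAs together, 7 for siRNA 7 and 5 for siRNA 9.

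**Figure D2:**
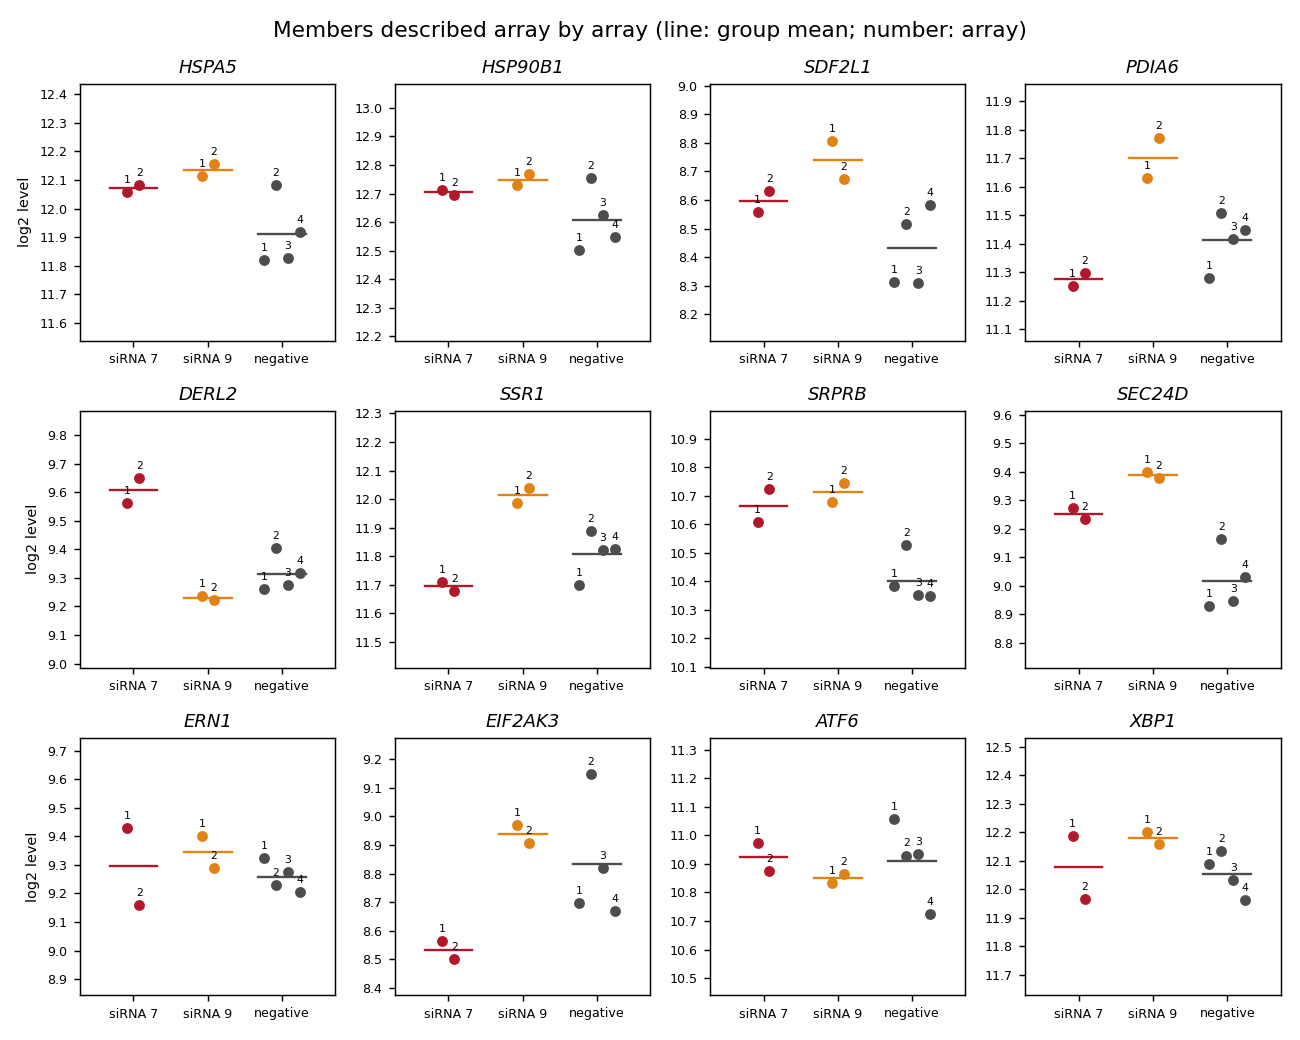
Log2 level on each array for 12 members, in the groups siRNA 7, siRNA 9 and negative siRNA; digits are array numbers, lines are group means, and every panel spans the same log2 range about its own centre. The 4 siRNA points of SRPRB and SEC24D lie above all negative points, while negative array 2 lies at the siRNA level for HSPA5 and HSP90B1.

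Of the small luminal proteins induced by ER stress, MANF, a secreted BiP-binding factor, gave a difference of 0.13 and CRELD2 one of -0.03. The lectin chaperones, which hold glycoproteins while they fold, were near 0: CALR at 0.02 and CANX at -0.02, with 95% intervals of -0.14 to 0.19 and -0.20 to 0.16.

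Of the disulfide isomerases, which form and rearrange disulfide bonds, 3 were measured. PDIA6, the isomerase that also binds the sensors IRE1 and PERK, had levels of 11.25 and 11.30 with siRNA 7, 11.63 and 11.77 with siRNA 9, and 11.28, 11.51, 11.42 and 11.45 with negative siRNA. The siRNA 9 arrays were above every other array and the siRNA 7 arrays lay beside the lowest negative array. PDIA6 with siRNA 7 stood at 74.5% of its level with siRNA 9 (log2 difference -0.42, 95% interval -0.67 to -0.18), which missed the adjusted threshold (limma adjusted p = 0.0720). The same difference was -0.21 (adjusted p = 0.365) for PDIA4, which had -0.03 with siRNA 7 and 0.18 with siRNA 9 against negative siRNA. For P4HB, the classical isomerase, it was -0.03. P4HB has a second probe set, at a difference of -0.04.

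ER-associated degradation returns misfolded proteins to the cytosol for the proteasome. DERL2, a rhomboid-like protein of the channel that exports them, had levels of 9.56 and 9.65 with siRNA 7, 9.23 and 9.22 with siRNA 9, and 9.26, 9.40, 9.27 and 9.32 with negative siRNA. The siRNA 7 arrays were above every other array and the siRNA 9 arrays were the lowest. Its difference was 0.29 for siRNA 7 against negative siRNA (SE 0.09, limma adjusted p = 0.355). Between the reagents it was 0.38 (95% interval 0.16 to 0.60, adjusted p = 0.0788).

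EDEM1, which marks glycoproteins for degradation, had a difference of 0.18 for both siRNAs and 0.27 for siRNA 9 (limma adjusted p = 0.347). SYVN1, the ubiquitin ligase HRD1, and DERL1 gave 0.12 and 0.10. SEL1L, the partner of HRD1, was at -0.00 and DERL3 at -0.10. HERPUD1, an adaptor of the same complex, was at 0.02 with a wide spread, from 11.25 to 11.96 over the siRNA arrays and from 11.38 to 11.69 over the negative arrays. The class median was 0.10 with 5 of 7 above 0.

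Of the translocation and export genes, 5 of 5 were above 0 for both siRNAs together, with a median of 0.10. SRPRB had levels of 10.61 and 10.72 with siRNA 7, 10.68 and 10.75 with siRNA 9, and 10.38, 10.53, 10.35 and 10.35 with negative siRNA. Every siRNA array was above every negative array. The mean was 10.69 ± 0.06 with TRIM44 siRNA and 10.40 ± 0.08 with negative siRNA (SD, n = 4 each), so that the siRNA level was 122% of the negative one (log2 difference 0.29, 95% interval 0.12 to 0.45). It missed the threshold after adjustment over all probe sets (limma adjusted p = 0.788). The 2 reagents gave 0.26 and 0.31, and their difference of -0.05 had an interval of -0.28 to 0.19.

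SEC24D had levels of 9.27 and 9.24 with siRNA 7, 9.40 and 9.38 with siRNA 9, and 8.93, 9.16, 8.95 and 9.03 with negative siRNA. The groups did not overlap, and the siRNA 9 arrays were the highest. Its mean was 9.32 ± 0.08 with TRIM44 siRNA and 9.02 ± 0.11 with negative siRNA (SD, n = 4 each), a level of 123% (log2 difference 0.30, 95% interval 0.12 to 0.48, limma adjusted p = 0.788). For siRNA 9 alone the difference was 0.37 (adjusted p = 0.103).

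SSR1, the alpha subunit of the translocon-associated protein complex, had levels of 11.71 and 11.68 with siRNA 7, 11.99 and 12.04 with siRNA 9, and 11.70, 11.89, 11.82 and 11.83 with negative siRNA. The siRNA 9 arrays were above all others and the siRNA 7 arrays lay beside the lowest negative array. The reagents differed by -0.32 (95% interval -0.54 to -0.09, limma adjusted p = 0.143). SEC61A1 and SEC61B, subunits of the translocon, gave 0.08 and 0.10 for both siRNAs together. SEC61B was above in all siRNA arrays, at 11.08 to 11.19 against 11.00 to 11.07 with negative siRNA.

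Over all members, the 4 siRNA arrays were all above the 4 negative arrays for 3 of 31, SEC61B, SRPRB and SEC24D (9.68%, against 1.59% of all probe sets). They were all below for 0 members, against 1.26% of probe sets. In the upper 50% of probe sets by mean, 2.36% were all above and 1.57% all below. SEC61B, SRPRB and SEC24D all belong to the translocation and export class. Leaving out an array can only keep or raise such a number. The number above was 7 without negative array 2 (22.6%, against 4.89% of probe sets), 6 without siRNA 7 array 1 (19.4%, against 3.68%) and 5 without siRNA 7 array 2 (16.1%, against 3.50%). Without any other array it was 3 or 4 (9.68% or 12.9%, against 2.03% to 4.23%).

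The sensors and transcription factors had a median difference of -0.03, with 2 of 5 above 0. ERN1 had levels of 9.43 and 9.16 with siRNA 7, 9.40 and 9.29 with siRNA 9, and 9.32, 9.23, 9.27 and 9.21 with negative siRNA. The siRNA 7 arrays enclosed the negative ones, and the difference for both siRNAs was 0.06 (SE 0.08). ATF6 had levels of 10.97 and 10.87 with siRNA 7, 10.83 and 10.86 with siRNA 9, and 11.06, 10.93, 10.93 and 10.72 with negative siRNA. The negative arrays spread wider than the siRNA arrays did, and the difference was -0.03 (SE 0.09).

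XBP1 had levels of 12.19 and 11.97 with siRNA 7, 12.20 and 12.16 with siRNA 9, and 12.09, 12.13, 12.03 and 11.96 with negative siRNA. Both siRNA 9 arrays were above the negative arrays, one siRNA 7 array was near the lowest of them, and the difference was 0.07 (SE 0.08). CREB3L2, an ER-bound factor cut like ATF6, was at -0.05.

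EIF2AK3, the gene of PERK, was the sensor with the largest difference between reagents. Its level was 8.56 and 8.50 with siRNA 7, 8.97 and 8.91 with siRNA 9, and 8.70, 9.15, 8.82 and 8.67 with negative siRNA. The siRNA 7 arrays were the lowest of all, and the siRNA 9 arrays lay within the range of the negative arrays, of which array 2 was the highest. Its difference was -0.30 for siRNA 7 (limma adjusted p = 0.605) and 0.11 for siRNA 9 (adjusted p = 0.815). Between siRNA 7 and siRNA 9 it was -0.41 (adjusted p = 0.189), with a 95% interval of -0.73 to -0.09.

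Between siRNA 7 and siRNA 9, 0 members passed the adjusted threshold of limma, against 2.23% of probe sets, and the lowest adjusted p was the 0.0720 of PDIA6. At an unadjusted p under 0.05 there were 5 members (16.1%, against 15.7% of all probe sets), a share near that of all genes. HYOU1 and DERL2 were above 0, and PDIA6, SSR1 and EIF2AK3 below 0. With only the upper 50% of probe sets by mean tested, 7 members were under this unadjusted p (22.6%, against 25.0%). The member median was -0.05 with 10 above 0, against -0.03 over all genes with 43.2% above 0.

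**Figure D3:**
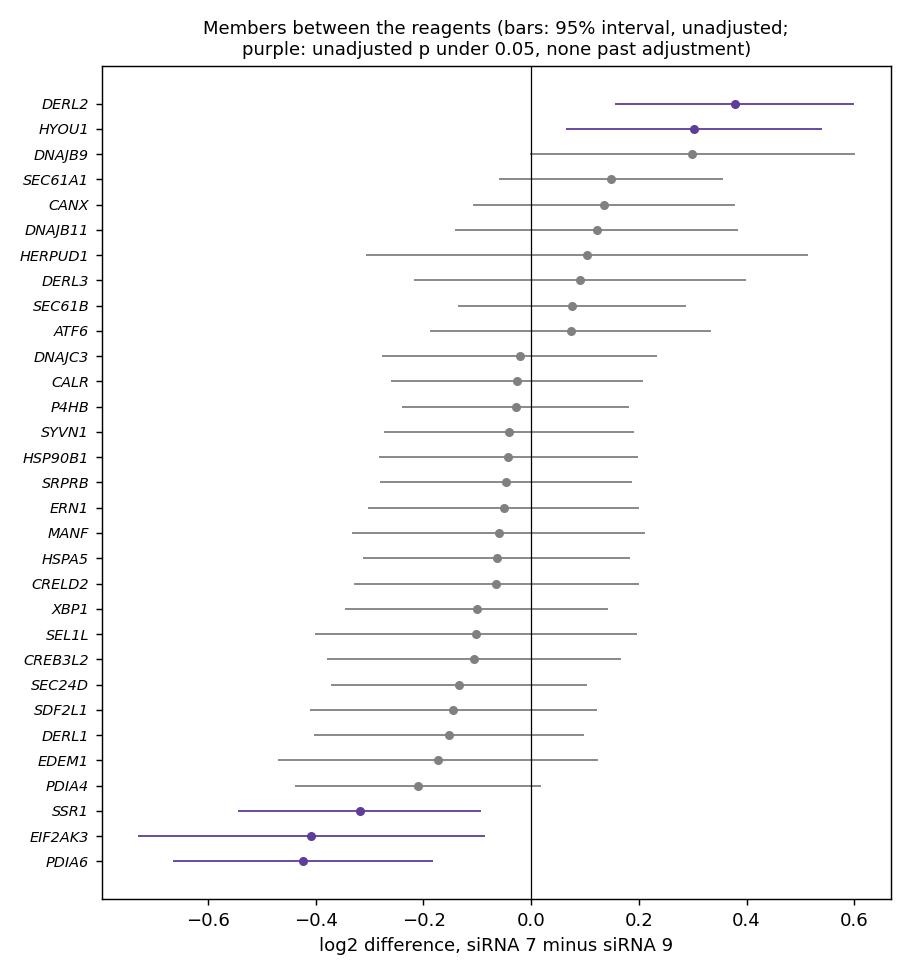
Log2 difference, siRNA 7 minus siRNA 9, for the 31 measured members with unadjusted 95% intervals; purple marks an unadjusted p under 0.05. The 5 purple members run from PDIA6 at -0.42 to DERL2 at 0.38, and no member passed the adjusted threshold.

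Negative array 2 was the highest negative array for 20 of 31 members, against 27.5% of all genes. The mean of gene-centred log2 levels over all members was 0.04 and -0.00 on the siRNA 7 arrays, 0.07 and 0.03 on the siRNA 9 arrays, and -0.07, 0.05, -0.05 and -0.07 on the negative arrays. Negative array 2 thus lay among the siRNA arrays. For the chaperone class it was 0.08 and 0.09 with siRNA 7, 0.07 and -0.03 with siRNA 9, and -0.15, 0.08, -0.08 and -0.06 with negative siRNA. For the translocation and export class it was 0.05 and 0.06 with siRNA 7, 0.10 and 0.12 with siRNA 9, and -0.13, -0.02, -0.09 and -0.09 with negative siRNA, with no overlap. The 7 members above negative arrays 1, 3 and 4, a choice of arrays made after the values were seen, were the 3 named before and HSPA5, HSP90B1, DNAJC3 and MANF. In fits without negative array 2, 2 members passed the threshold for siRNA 9 (SRPRB and SEC24D, 6.45% of members against 5.57% of probe sets). Between the reagents 3 passed (PDIA6, DERL2 and EIF2AK3, 9.68% against 5.48%).

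**Figure D4:**
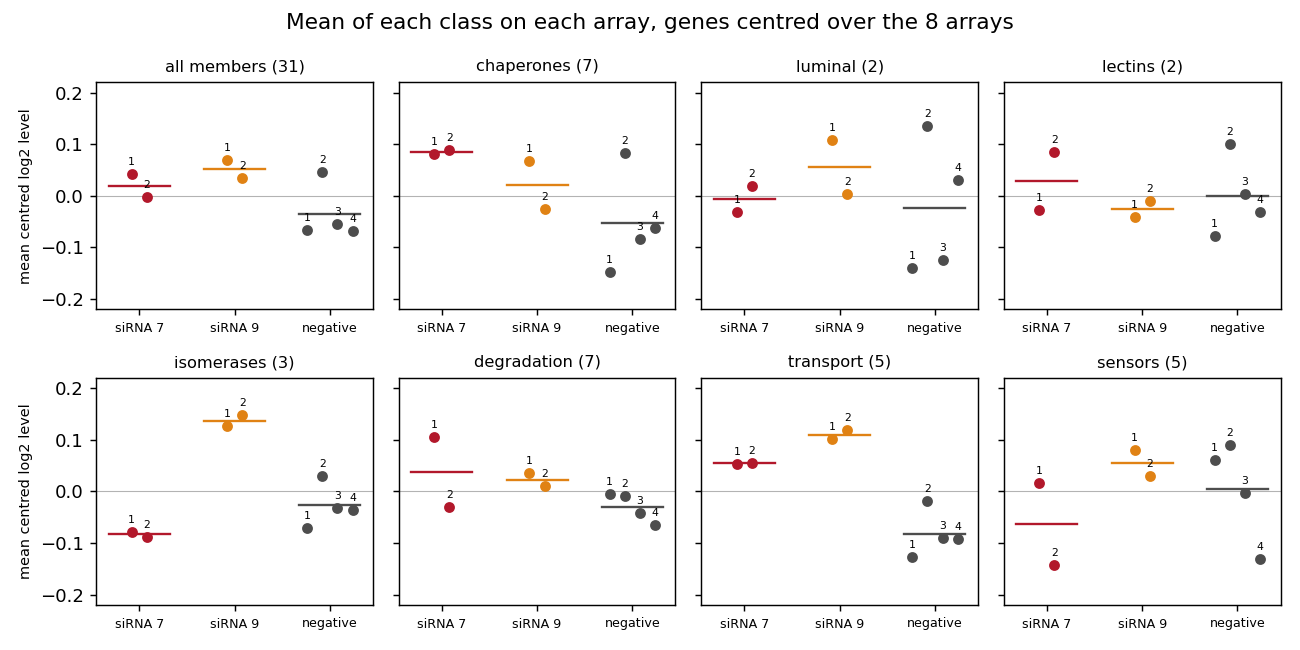
Mean of gene-centred log2 levels for each class of members on each array, in the groups siRNA 7, siRNA 9 and negative siRNA. The translocation and export class (transport) is the one in which all siRNA arrays, at 0.05 to 0.12, lie apart from the negative arrays, at -0.13 to -0.02, on the upper side; isomerases lie at 0.13 and 0.15 with siRNA 9 and at -0.08 and -0.09 with siRNA 7.

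For the members with an ERSE or ERSE-II match the median difference for both siRNAs was 0.05 with 7 of 10 above 0, and that of the 18 members with a window but no match was 0.08 with 13 above 0. SRPRB has a window without either element, and SEC24D has none in the table used. On either strand, the XBP1-binding letters TGACGTGG were in 0.729% of all windows and in that of HYOU1, where they overlap its first ERSE-II. The letters TTGCATCA, the core of the ATF4 element, were in 0.866% of windows and in that of HERPUD1.

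The wider ER network was read from 10 lists with 144 measured genes of 151. For both siRNAs, siRNA 7 and siRNA 9 against negative siRNA, 0 of these genes passed the adjusted threshold of limma. At an unadjusted p under 0.05 there were 12, 16 and 28 (8.33%, 11.1% and 19.4%, against 5.43%, 7.46% and 13.6% of all probe sets). With only the upper 50% of probe sets by mean tested, the shares of probe sets were 7.76%, 11.5% and 21.7%. The list genes were not counted in that setting. The PERK and ATF4 arm, which raises amino acid and redox genes, had a median of -0.10 over 12 of 12 genes, with 6 above 0. With siRNA 9 its median was -0.25, with 1 gene above and 4 below 0 at an unadjusted p under 0.05. CHAC1, which degrades glutathione, had levels of 10.85 and 9.32 with siRNA 7, 9.25 and 9.18 with siRNA 9, and 10.58, 9.83, 10.55 and 10.29 with negative siRNA. Of the siRNA arrays, 3 were below all negative arrays, and siRNA 7 array 1 was above them; the siRNA 9 difference was -1.10 (adjusted p = 0.154). For DDIT4, an inhibitor of mTORC1, it was -0.76 (adjusted p = 0.0748). In a fit of only the siRNA 9 and negative arrays, both passed at these same differences (limma adjusted p = 0.0229 for CHAC1 and 0.0165 for DDIT4). That fit called 0.82% of probe sets. Both also passed without negative array 2, at -1.26 and -0.82, where 5.57% of probe sets were called. Without 1 array the differences were -1.26 to -1.01 for CHAC1 and -0.82 to -0.70 for DDIT4. The calls did not hold in every such fit.

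The other translocation genes had a median of 0.06 and 17 of 19 above 0. SRPRA, the partner of SRPRB in the signal recognition particle receptor, was at 0.20 and SEC11C, a signal peptidase subunit, at 0.25 (limma adjusted p = 0.903 and 0.901). Coat and retrieval genes had a median of 0.04 with 12 of 17 above 0, with SEC23B, a partner of SEC24 proteins in the coat, at 0.19. Other degradation genes had a median of 0.01 with 13 of 23 above 0. Among them UBE2G2, a ubiquitin-conjugating enzyme, was at 0.36 (adjusted p = 0.575) and SELENOS at 0.32 (adjusted p = 0.788).

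Other oxidative folding enzymes had a median of 0.03 with 13 of 18 above 0, with ERP44 at 0.21 and TXNDC11 at 0.16. Glycan trimming genes had a median of 0.01 with 3 of 6 above 0, CLGN at 0.18 and MOGS at 0.12. Oligosaccharyltransferase genes had a median of -0.00 with 4 of 11 above 0, STT3A at 0.19 and MAGT1 at -0.32. Other sensors and regulators had a median of -0.02 with 6 of 14 above 0, WFS1 at 0.13 and MBTPS1 at 0.12. Of the chaperones of other compartments, the cytosolic heat shock genes had a median of 0.07 with 8 of 14 above 0, DNAJB1 at 0.39 and BAG3 at 0.22. Mitochondrial genes had a median of 0.02 with 6 of 10 above 0, HSPE1 at 0.17 and CLPX at 0.16.

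Between the reagents, 8 of the 144 list genes passed the adjusted threshold (5.56%, against the 2.23% of all probe sets given before). Of these 8, 4 were above 0 and 4 below. With only the upper 50% of probe sets by mean tested, 7.34% of probe sets were called, and these 8 genes stayed called. The other list genes were not recomputed there. Whether the lists hold more calls than probe sets of similar level was thus not tested. CREB3L1, an ER-bound transcription factor of secretory cells, had levels of 10.34 and 10.17 with siRNA 7 and 9.48 and 9.44 with siRNA 9, and 10.20, 10.07, 10.00 and 9.69 with negative siRNA. The siRNA 9 arrays were below all others, and the difference was 0.80 (limma adjusted p = 0.0223). FAM8A1, a cofactor of HRD1, had levels of 8.56 and 8.55 with siRNA 7 and 9.26 and 9.26 with siRNA 9, and 9.11, 9.00, 9.02 and 9.24 with negative siRNA. Here the siRNA 7 arrays were below all others, and the difference was -0.70 (adjusted p = 0.0123).

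The other genes higher with siRNA 7 than with siRNA 9 were UBE2J1, a degradation enzyme, at 0.56, CREB3 at 0.51 and SEC16A, a scaffold of ER exit sites, at 0.50. The others lower were MAGT1, an oligosaccharyltransferase subunit, at -0.75, EDEM3, a glycan trimming enzyme of degradation, at -0.68 and MCFD2, a cargo receptor subunit, at -0.55. Their adjusted p-values were 0.0179 to 0.0479. Each kept its sign in every fit that left out an array, which was fixed in advance. The negative arrays do not enter this difference, and the arrays of the reagents did not overlap for any of these genes. Of the 8 calls, 5, 6, 7 and 8 held without negative arrays 3, 1, 4 and 2. Those fits called 1.14%, 1.75%, 2.59% and 5.48% of probe sets. Without a siRNA array, 1 array of that reagent was left and most of the 8 calls were lost. Fewer probe sets were called there than with all arrays. None of the 8 passed when all probe sets of the array were tested (limma adjusted p = 0.0646 to 0.148), where 0.0248% of probe sets were called. MAGT1 has 2 probe sets, and with the median over them its difference was -0.49 (adjusted p = 0.0522).

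The number of arrays sets the precision. The standard errors of the members were 0.07 to 0.13 for both siRNAs together, and the largest member difference there was 0.30 in size. The only call of that comparison was TRIM44, at 0.81 in size, which is not a limit of detection.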

How the data were processed

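RNA of 8 samples was hybridised to Affymetrix Human Gene 1.0 ST arrays. The deposited values were expression levels on a log2 scale, which the authors had already brought close to a common distribution; limma is the tool named in the submitters' processing notes, while the normalization method and the genome build were not given in the sources used here. No signal over background was given. Of 32321 probe sets, the 19158 with exactly 1 symbol (18404 genes) were tested; 1388 with several and 11775 with none were left out. Gene IDs were looked up in RefSeq genes of GRCh38.p14 (19128 found, 0 symbols changed). Where a gene had several probe sets, the brightest represented it.

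The members and lists were chosen with earlier results of these data known. TRIM44 siRNA was set against negative siRNA in a 2-group limma fit, and siRNA 7, siRNA 9 and their difference were taken from a fit of 3 group means. Tests were two-sided, adjusted by Benjamini-Hochberg over all 19158 probe sets, at a threshold of 0.05. Intervals are 95% and unadjusted. Gene-centred levels are log2 levels minus the gene's mean over the 8 arrays.

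By rule, array values are given for the 4 members of largest difference in each comparison and for HSPA5, HSP90B1, XBP1, ERN1, EIF2AK3 and ATF6. Of each list, the genes past the threshold and the 2 of smallest p in the 2-group fit are named. Array values of DNAJC3, HYOU1, HERPUD1, SEC61B, CHAC1 and the marker PRDM1, and the names of other members at an unadjusted p under 0.05, were added after their values were seen. TRIM44, the 12 members named by this rule, the 8 called list genes, and the members' counts and medians were recomputed after quantile normalization or median centring, on the upper 50% of probe sets by mean or on all probe sets, with a variance prior that was trended and robust, with array weights, with a block for replicate number, as the mean of the reagents in the fit of 3 group means, with siRNA identity as a random block, from only the arrays compared, from the median over a gene's probe sets, and without each array in turn. The same was done, as a choice made after seeing the data, for DNAJC3, HYOU1, EDEM1, SEC61B, CHAC1 and DDIT4, the medians of classes and lists, and the counts without overlap. Other members and list genes were not recomputed one by one. The fitting code was first tested on simulated data. R 4.3.3, limma 3.58.1, statmod 1.5.0, pandas 2.3.3 and matplotlib 3.10.9 were used.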

Additional observations from a re-analysis of the deposited data

Results flagged for a closer look

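In groups of 4 arrays, a single array lay far from the other 3 in 3 of the 96 sets of values looked at (Dixon's test at its 95% critical value), and chance gives about 1 in 20. DNAJC3 stood at 9.38 on negative array 2, against 9.10 to 9.14 on the other negative arrays. EDEM1 stood at 8.02 on siRNA 7 array 1, against 8.29 to 8.34 on the other siRNA arrays. The mean of gene-centred levels over all members was 0.046 on negative array 2, against -0.068 to -0.054 on the other negative arrays.

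For 8 genes of the wider ER lists, the difference between siRNA 7 and siRNA 9 itself passed the limma test. CREB3L1 (0.80), UBE2J1 (0.56), CREB3 (0.51) and SEC16A (0.50) were higher with siRNA 7. MAGT1 (-0.75), FAM8A1 (-0.70), EDEM3 (-0.68) and MCFD2 (-0.55) were lower with siRNA 7. All 8 lost the call when all probe sets of the array were tested, where 0.0248% of probe sets were called. MAGT1 was at -0.49 (adjusted p = 0.0522) with the median over its 2 probe sets. EDEM3 was at -0.66 (0.0780) with median centring, and CREB3 had an adjusted p of 0.0521 from only the arrays compared.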

How the results depend on the processing

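For siRNA 9, 1 member passed the threshold among the upper 50% of probe sets (SEC24D, 3.23% of members against 4.07% of probe sets) and 5 with array weights (HSPA5, SDF2L1, PDIA6, SRPRB and SEC24D, 16.1% against 10.9%). Between the reagents, 1 member passed with quantile normalization (PDIA6, 3.23% of members against 2.84% of probe sets). There were 2 (PDIA6 and DERL2, 6.45%) among the upper 50% of probe sets (against 7.34%) and with array weights (against 5.55%), and 3 with the trended and robust prior (these and SSR1, 9.68% against 4.13%). Leaving out negative array 2 gave 2 members for siRNA 9 (6.45%, against 5.57%) and 3 between the reagents (9.68%, against 5.48%). Leaving out any other negative array gave 0 in both. For TRIM44 the limma adjusted p was 0.108 with median centring (-0.81), 0.442 over all probe sets (-0.81), 0.108 with siRNA identity as a random block (-0.81) and 0.998 with the replicate block (-0.88); without 1 array its difference was -0.87 to -0.73. The member median for siRNA 7 ran from 0.026 to 0.125 without 1 array, the highest without siRNA 7 array 2. ATF6 for siRNA 7 changed sign to -0.0094 (quantile normalization), -0.014 (array weights) and -0.071 (replicate block), XBP1 and EDEM1 for siRNA 7 to -0.034 and -0.017 (replicate block), and DNAJC3 between the reagents to 0.00039 (median centring). For siRNA 9, CHAC1 and DDIT4 passed with array weights (-1.27 and -0.88) and from only the arrays compared (-1.10 and -0.76), and DDIT4 also among the upper 50% of probe sets. These 3 settings called 10.9%, 0.82% and 4.07% of probe sets. Members above without overlap numbered 3 to 7 without 1 array (9.68% to 22.6%, against 2.03% to 4.89% of probe sets), a number that leaving out an array cannot lower. Of 1173 recomputed medians of classes and lists, 1111 moved by less than the spread between negative arrays. Settings that change only the test cannot move a median, nor can leaving out an array outside the comparison. Part of that count was thus fixed in advance. The cause of the changes was not tested.

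Without 1 array, signs turned for both siRNAs in ATF6 (-0.088 to 0.023), EIF2AK3 (-0.176 to 0.0074), PDIA6 (-0.020 to 0.152) and SSR1 (-0.017 to 0.103), for siRNA 7 in ATF6 (-0.051 to 0.060), ERN1 (-0.0999 to 0.171), XBP1 (-0.087 to 0.135), EDEM1 (-0.040 to 0.228), CHAC1 (-0.995 to 0.542) and DDIT4 (-0.592 to 0.182), and between the reagents in DNAJC3 (-0.057 to 0.014), ERN1 (-0.187 to 0.084), XBP1 (-0.212 to 0.0099) and SRPRB (-0.104 to 0.010). Deviations from group means correlated at 0.024 to 0.306 between arrays with the same number. With 2 arrays per reagent, values for the 2 numbers differ only in sign. Whether a number marks a shared culture or day cannot be told. The replicate block called 0 members for both siRNAs, siRNA 7, siRNA 9 and between the reagents. At an unadjusted p under 0.05 there were 2, 2, 4 and 5 (6.45%, 6.45%, 12.9% and 16.1%, against 3.83%, 8.69%, 12.5% and 17.7% of probe sets). With this block CREB3 lost its call between the reagents (limma adjusted p = 0.0766). Probe sets called with array weights were 33, 70, 2082 and 1063, against 1, 13, 177 and 428 as reported.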
